A study of Papio anubis with 40 samples.

Results

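Transfer RNA (tRNA) fragments in serum were compared between month 3, the first draw after endometriosis was induced, and month 0, the draw before inoculation, in the same 8 olive baboons (Papio anubis). The 16 libraries were chosen by their month label, 8 at each month of the 40 in the series, and were paired by the animal number. After the month 0 draw the animals were inoculated, at laparoscopy, with menstrual tissue into the peritoneal cavity, and each library was made from 0.5 mL of serum. The labels name no treatment at either month, and they call the animals baboons with endometriosis at month 0 as well. Sex, age and cycle stage were not given in the sources used here. No animal went without inoculation, so inoculation, surgery, age and time between draws cannot be told apart. Each animal gave 1 library a month.

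tRNAs carry amino acids to the ribosome, and ribonucleases such as angiogenin cut them in or near the anticodon loop. The cut leaves a 5' piece that ends near the anticodon, and a 3' piece that ends in CCA, the triplet added to every mature tRNA. In serum the 5' pieces of a few tRNAs, among them those of glycine, glutamate, valine, lysine and histidine, are known to be abundant, and some circulate in complexes that protect them from degradation. Endometriosis is the growth of tissue like the uterine lining outside the uterus, and placing menstrual tissue in the peritoneal cavity of baboons is a known way to induce it.

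The sequences on which the results turn are shown first, with T in place of U. In each pair the first sequence is the most abundant 5' fragment of its family and length, and capitals in the second mark the bases that differ from it. Positions are counted from 1 at the 5' end, so A6G means that the first has A at position 6 and the second has G; the same holds for other variants named later. The first pair, from Met-CAT, holds the fragment with the smallest p-value at month 3 (A6G).
tRF-30-FP18LPMBQ4NK: agcagagtggcgcagcggaagcgtgctggg
tRF-30-FPR8LPMBQ4NK: agcagGgtggcgcagcggaagcgtgctggg
The second pair, from Glu-TTC, holds the lower fragment with the smallest p-value (T13C).
tRF-32-86J8WPMN1E8YN: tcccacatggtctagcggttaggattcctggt
tRF-32-86J88PMN1E8YN: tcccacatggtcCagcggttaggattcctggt
The third pair is from Val-AAC/CAC (valine tRNAs whose anticodons AAC and CAC share a 5' sequence). It holds the most abundant fragment of all and a variant that was higher in every animal after counts were scaled (T16C, A24C and G26A).
tRF-31-79MP9P9NH57SD: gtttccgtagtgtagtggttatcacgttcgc
tRF-31-79MP9PMNHRISD: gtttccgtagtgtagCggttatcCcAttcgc
The next 4 are the main Gly-CCC fragments, which share their first bases and differ in where they end; capitals mark the bases beyond the shortest.
tRF-27-Q1Q89P9L842: gcgccgctggtgtagtggtatcatgca
tRF-29-Q1Q89P9L84FS: gcgccgctggtgtagtggtatcatgcaAG
tRF-30-Q1Q89P9L8422: gcgccgctggtgtagtggtatcatgcaAGA
tRF-32-Q1Q89P9L8422Q: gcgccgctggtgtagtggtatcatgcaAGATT
The next is a longer valine fragment that reaches into the anticodon, with the base that differs from the other one of its length in a capital (G34C).
tRF-37-79MP9P9NH57S362: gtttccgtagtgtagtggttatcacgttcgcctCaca
The last is the most abundant fragment that ends in CCA (capitals), from Asp-GTC.
tRF-42-S5QKF1R3WE8RO86J2: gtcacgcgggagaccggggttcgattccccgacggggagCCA
Each name gives the length in nucleotides (nt) after tRF. The Met-CAT sequence is that of the initiator tRNA of vertebrates, which starts protein synthesis.

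Total counts ranged from 198840 to 5536169 at month 0 and from 1517359 to 5820533 at month 3. The lowest by far was PA8001 at month 0, where 2281 distinct fragments were detected against 6093 to 12218 in the other 15 libraries. Levels are given as CPM, the count of a fragment relative to its library's total, after scaling by the trimmed mean of M-values (TMM). A count of 0 allows up to 3 counts, or 0.624 to 1.75 CPM in the other 15 libraries and 7.82 CPM in PA8001 at month 0. These limits cover counting error only. Markers of blood cell types were not in the table, which lists tRNA fragments only.

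Of the 2447 fragments tested, none passed at month 3 (0%, edgeR's quasi-likelihood test, Benjamini-Hochberg adjusted p under 0.05; smallest adjusted p 0.999). An unadjusted p under 0.05 was reached by 73 fragments (2.98%), 53 of them higher and 20 lower. DESeq2 called 0 with 99 such fragments, limma-voom 0 with 50, and limma-voom with library weights 0 with 29. The ranges of the 8 month 0 and 8 month 3 libraries overlapped for every fragment tested, and 13 fragments were higher and 2 lower in 8 of 8 animals (0.613% together). The median log2 change was 0.10, with 80% of fragments between -0.42 and 0.54, and 42 fragments were beyond 1 in either direction. The median standard error (SE) was 0.39, and the 95% interval lay within a log2 change of 1 either way for 933 fragments (38.1%). For the other fragments a log2 change of 1 or more was within the interval. In what follows a fragment is called higher or lower at month 3 by the sign of its fitted log2 change, and the number of animals is counted on its level in each library. The share of fragments above 0 was 60.9% after TMM scaling and 49.7% when only library totals were used, when the median moved to -0.0036. Changes of lists below are to be read against that shift of 0.10.

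**Figure D1:**
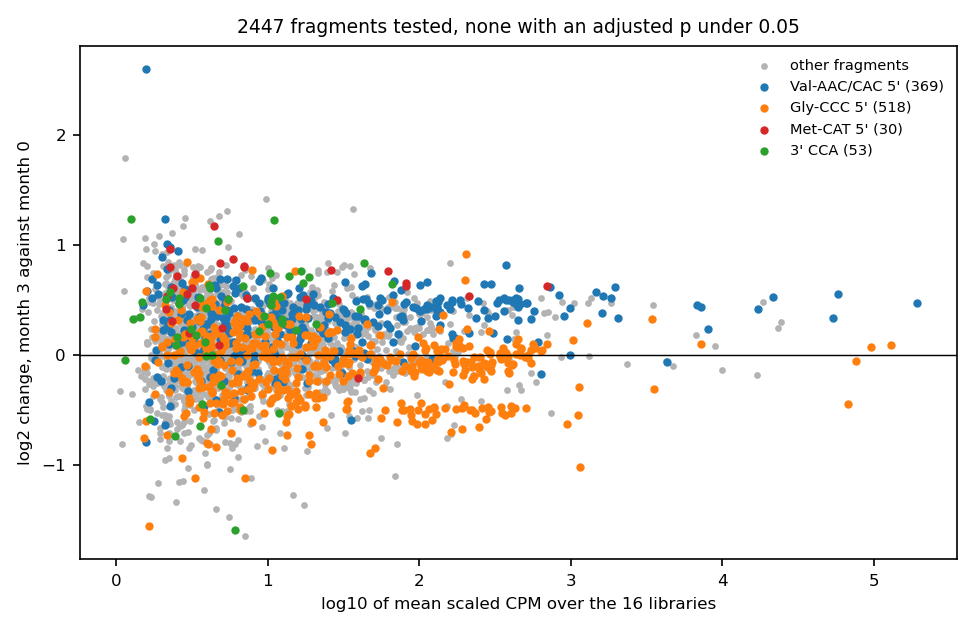
Log2 change of each of the 2447 fragments at month 3 against month 0 (vertical axis) against the log10 of its mean scaled CPM over the 16 libraries (horizontal axis), with 4 groups coloured and their number tested in the key. Most Val-AAC/CAC points lie above 0, the Gly-CCC points lie in bands near 0 and below it, and the points beyond 1 are mostly fragments of low level.

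The 10 most abundant fragments came from valine, glycine, lysine and glutamate tRNAs. Each library's own 10 most abundant held 73.9% ± 2.63 (SD, n = 8) of counts in the draw before inoculation and 74.9% ± 1.54 in the later one. tRF-31-79MP9P9NH57SD of Val-AAC/CAC was the most abundant. It stood at 21470 to 272120 CPM at month 0 (median 164990), and at 110620 to 366990 CPM at month 3 (median 235980). Its lowest value was PA8001 at month 0, the other ranges overlapped, and it was higher in 5 of 8 animals (log2 0.47 ± 0.327 SE, 95% interval -0.19 to 1.13, adjusted p 0.999). The change was 0.19 without PA8001. The Val-AAC/CAC fragments tRF-31-79MP9P9NHR7SD, which differs by A24C, and tRF-31-79MP9PMNH57SD, which differs by T16C, had log2 changes of 0.55 ± 0.300 and 0.53 ± 0.315 SE and were higher in 6 and 7 of 8 animals. The longer tRF-32-79MP9P9NH57SJ had a log2 of 0.33 ± 0.333 SE. Without PA8001 these 3 were 0.26, 0.27 and 0.035, and without its month 0 library alone 0.37, 0.32 and 0.14.

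The 4 main Gly-CCC fragments differ in length, and the 95% intervals of their changes overlapped. tRF-27-Q1Q89P9L842 was at 17025 to 254510 CPM at month 0 (median 130790) and 58275 to 251420 CPM at month 3 (median 92659), higher in 4 and lower in 4 animals (log2 0.09 ± 0.371 SE). tRF-29-Q1Q89P9L84FS and tRF-30-Q1Q89P9L8422, longer at the 3' side, had log2 changes of 0.07 ± 0.280 and -0.05 ± 0.286 SE, with 4 of 8 animals higher for each. tRF-32-Q1Q89P9L8422Q was at 40501 to 123720 CPM at month 0 (median 70361) and 28616 to 116560 CPM at month 3 (median 50067), and was lower in 6 of 8 animals (log2 -0.45 ± 0.331 SE, interval -1.12 to 0.23). None of these passed. The sign turned in some settings for the first 3. Of the remaining 2 among the 10, tRF-31-PS5P4PW3FJHPB of Lys-TTT had a log2 of 0.30 ± 0.321 SE and tRF-31-87R8WP9N1EWJ0 of Glu-CTC 0.24 ± 0.385 SE, or 0.17 and -0.061 without PA8001.

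Families were summed over all their fragments, and none of the 29 tested passed (0%, edgeR, smallest adjusted p 0.988; 0 with an unadjusted p under 0.05; DESeq2 0 with 2 and limma-voom 0 with 0). Val-AAC/CAC took 35.3% ± 13.0 (SD, n = 8) of library counts at month 0 and 43.0% ± 10.3 at month 3. Its lowest, median and highest shares were 10.8%, 36.2% and 53.5% at month 0 and 31.2%, 39.0% and 63.7% at month 3. The share was higher in 6 of 8 animals, and the mean difference of 7.78 percentage points was smaller than its SD over animals of 14.2 (exact two-sided sign-flip p = 0.180, adjusted over 23 library measures 0.984). Gly-CCC went the other way in 6 of 8 animals, from 47.6% ± 13.6 to 40.2% ± 10.3. It spanned 28.7% to 73.1% at month 0 and 19.4% to 54.5% at month 3 (exact sign-flip p = 0.219, adjusted 0.984). PA8001 at month 0 held both the lowest valine and the highest Gly-CCC share. Family sums were scaled by TMM factors of their own, so their levels are not on the scale of the fragments. The highest scaled Gly-CCC level at month 0 was 1658400 CPM, more than a whole library can hold. On the scaled counts the 2 families had log2 changes of 0.40 ± 0.304 and -0.38 ± 0.283 SE. Val-AAC/CAC was then higher in 4 and lower in 4 animals, and Gly-CCC higher in 3 and lower in 5. The log2 changes were 0.19 and -0.25 without PA8001. Without the month 0 library of PA8001 alone they were 0.64 and 0.15, so the sign for Gly-CCC turned, and the median of all 29 families moved from 0.08 to 0.25.

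**Figure D2:**
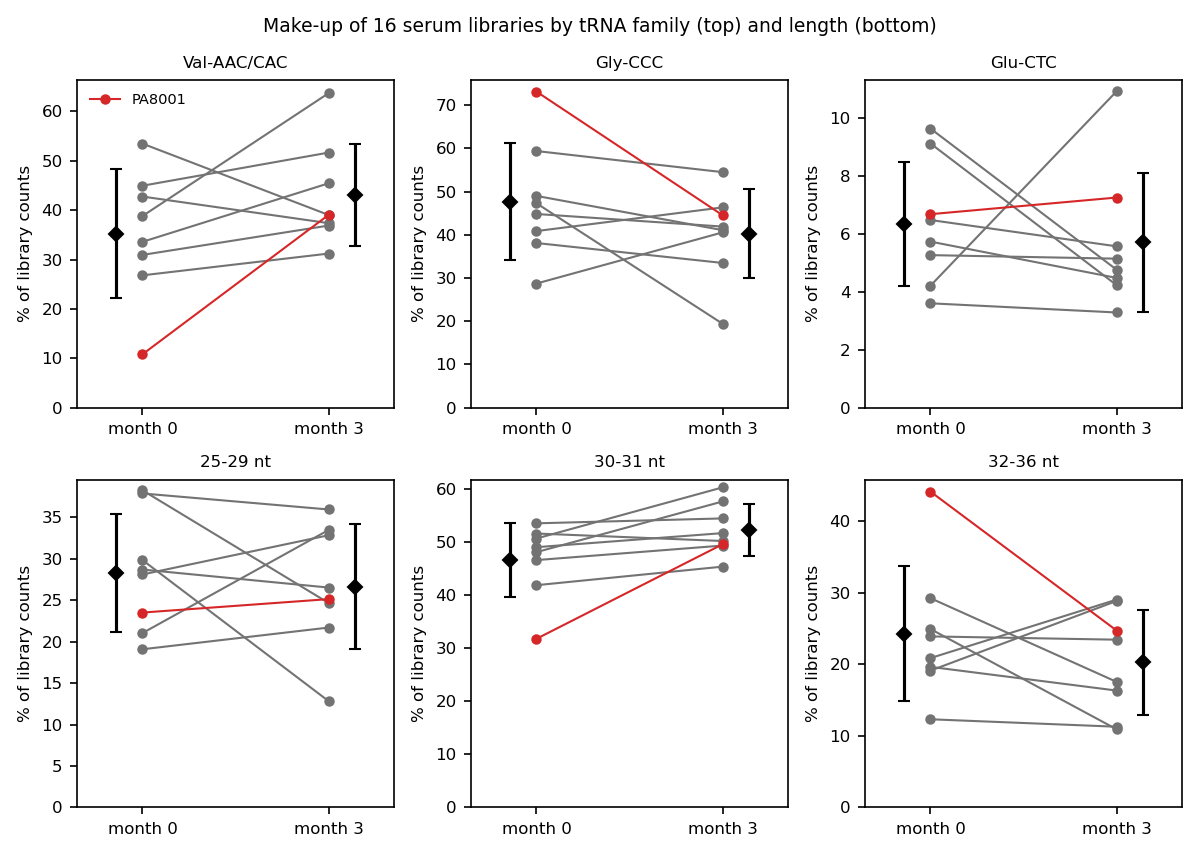
Share of library counts (percent, vertical axis) in 3 tRNA families and 3 length bands at month 0 and month 3, with a line for each of the 8 animals (PA8001 in red) and the mean ± SD beside them as black diamonds. The 2 months overlap in every panel, PA8001 at month 0 is at the edge of 4 of them, and the share of 30-31 nt is higher at month 3 in 7 of 8 animals.

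The other abundant families differed by less than their spread over animals. Glu-CTC was at 6.34% ± 2.15 and 5.71% ± 2.40, Lys-TTT at 5.13% ± 1.58 and 5.05% ± 1.94, and Gly-GCC at 3.21% ± 1.349 and 3.52% ± 1.57 (months 0 and 3, SD, n = 8). Their log2 changes were -0.14 ± 0.332, -0.13 ± 0.271 and 0.06 ± 0.275 SE, and 0.42, 0.25 and 0.45 without the month 0 library of PA8001. Among the less abundant, Glu-TTC had a log2 of -0.45 ± 0.315 SE (interval -1.08 to 0.18), Val-TAC 0.17 ± 0.293, and Lys-CTT and Asp-GTC 0.00066 ± 0.290 and 0.0019 ± 0.293. Without the month 0 library of PA8001, Glu-TTC was -0.12 and Val-TAC 0.42. Met-CAT had the smallest p of the families (unadjusted 0.0778). It held 0.0478% to 0.171% of counts at month 0 (median 0.118%) and 0.1002% to 0.266% at month 3 (median 0.151%). Its share was higher in 6 of 8 animals and its scaled level in 5 of 8 (log2 0.50 ± 0.283 SE, interval -0.06 to 1.07, and 0.17 without PA8001). Without the month 0 library of PA8001 alone, Met-CAT moved the other way, to 0.70. With only the fragments that match a family sequence exactly its change was 0.88 and still did not pass (adjusted p 0.0623, edgeR), and that of Gly-CCC was 0.05. The median of all 29 families was 0.40 in that setting, against 0.08. The 95% interval lay within a log2 change of 1 for 21 of the 29 families (72.4%).

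**Figure D3:**
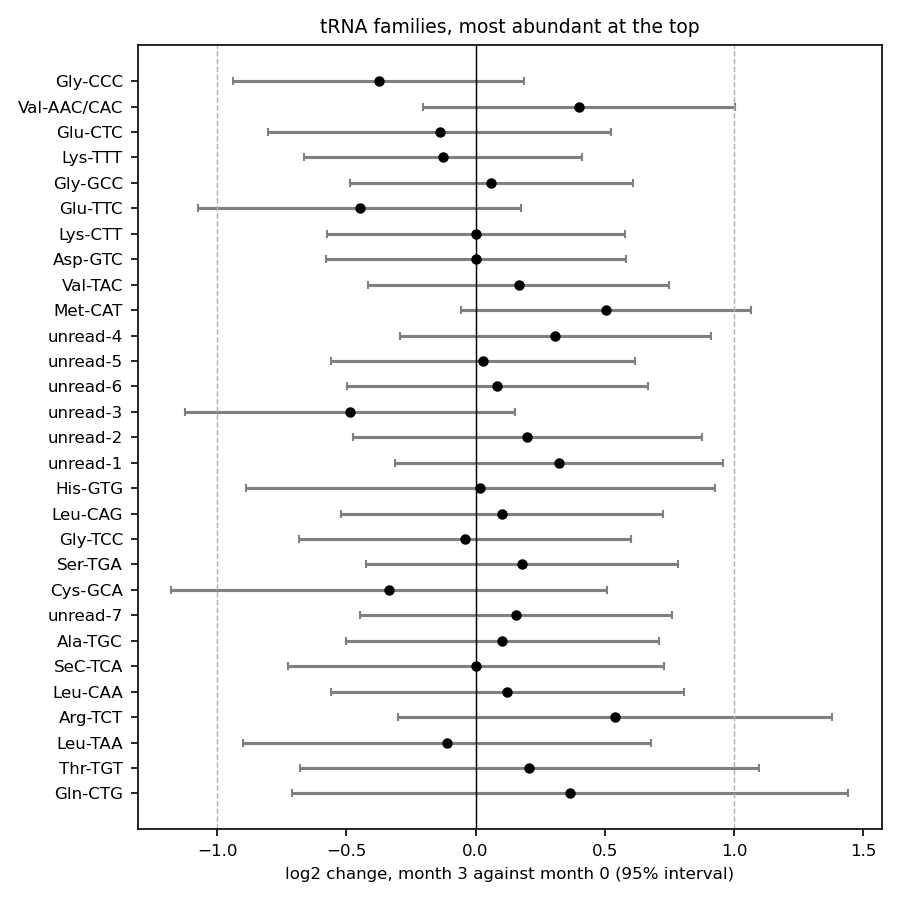
Log2 change at month 3 against month 0 with its 95% interval for each of the 29 families (horizontal axis; dashed lines at -1 and 1), ordered by abundance from the top; "unread" families are 5' ends whose anticodon was not read. Every interval includes 0, and 21 lie between the dashed lines.

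Length was the measure that differed in the most animals. Fragments of 30-31 nt made up 46.7% ± 6.97 (SD, n = 8) of counts at month 0, from 31.8% to 53.5% (median 48.6%), and 52.3% ± 4.88 at month 3, from 45.4% to 60.3% (median 51.0%). The share was higher in 7 of 8 animals by a mean of 5.68 ± 6.25 percentage points. This had the smallest p of the 23 measures and did not pass (exact two-sided sign-flip p = 0.0234, adjusted 0.539; 0.00781 is the smallest that 8 animals allow). The mean difference was 3.94 points without PA8001, whose own share went from 31.8% to 49.6%. Fragments of 32-36 nt were lower in 6 of 8 animals, 24.3% ± 9.43 against 20.3% ± 7.29 (exact sign-flip p = 0.305, adjusted 0.984). Those of 25-29 nt were at 28.3% ± 7.11 and 26.6% ± 7.50, with 4 animals each way. Mean length stayed at 30.2 nt (SD 0.356 at month 0 and 0.384 at month 3). The mean length of Gly-CCC 5' fragments was lower in 7 of 8 animals, at 29.2 ± 0.622 nt and 29.0 ± 0.533 nt (exact sign-flip p = 0.328, adjusted 0.984). The number of distinct fragments at a common depth of 198840 counts was 2492 ± 325 and 2502 ± 218, and Shannon diversity was 3.47 ± 0.149 and 3.43 ± 0.124.

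Fragment by fragment, 5' fragments of 26-31 nt and of 32-36 nt differed in the sign of their medians. Of the 1358 shorter ones tested, 949 were higher at month 3 (median log2 0.17), and of the 513 longer ones 172 were (median -0.15), against 1489 of all 2447 (median 0.10). With library totals only the medians were 0.05 and -0.28, and without PA8001 0.08 and -0.17. The step lay between 31 nt, where 332 of 423 were higher (median 0.29), and 32 nt, where 127 of 381 were (median -0.16). None of these passed singly, and fragments that differ by a base or an end share their source tRNA, so the counts are not counts of separate observations. The same order within families was seen in Lys-TTT, where 97 of 122 fragments of 30-31 nt and 8 of 71 of 32-36 nt were higher, and in Lys-CTT (58 of 64 and 7 of 31), Glu-CTC (99 of 108 and 21 of 76) and Gly-GCC (84 of 122 and 4 of 20). In Val-AAC/CAC 167 of 168 and 113 of 161 were higher (medians 0.44 and 0.20, and 0.25 and 0.02 without PA8001). In Gly-CCC 20 of 128 and 6 of 94 were higher (medians -0.15 and -0.50), as were 168 of 278 of its fragments of 26-29 nt (median 0.04, and -0.10 with library totals only). In Glu-TTC 19 of 42 and 1 of 28 were (medians -0.04 and -0.50). All these medians of 30-31 nt and 32-36 nt kept their sign with library totals only and without PA8001.

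Within the Gly-CCC 5' counts, the 32 nt length held 7.43% to 42.8% at month 0 (median 17.7%) and 6.55% to 28.5% at month 3 (median 16.6%), lower in 6 of 8 animals. Its 27 nt length held 5.74% to 46.7% at month 0 (median 32.2%) and 14.1% to 52.1% at month 3 (median 32.8%), higher in 6 of 8. In Glu-CTC the 31 nt length went from 37.7% ± 8.82 to 44.6% ± 3.74 (SD, n = 8), higher in 6 of 8 animals, and the 32 nt length from 38.3% ± 17.7 to 29.8% ± 9.75, lower in 5 of 8. In Lys-TTT the 31 nt length held 39.6% to 60.2% at month 0 (median 56.5%) and 54.1% to 62.8% at month 3 (median 60.5%). It was higher in 8 of 8 animals with overlapping ranges, and was singled out after its values were seen. In Lys-CTT the same length held 43.0% ± 6.75 and 47.2% ± 5.60, higher in 7 of 8. In Val-AAC/CAC, whose 31 nt length held 72.3% ± 3.84 and 75.0% ± 6.09, the difference was smaller than the larger SD. So were those of Glu-CTC, Lys-CTT and Lys-TTT (53.9% ± 6.86 and 59.75% ± 2.76 for Lys-TTT). These make-ups are descriptions and were not tested.

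**Figure D4:**
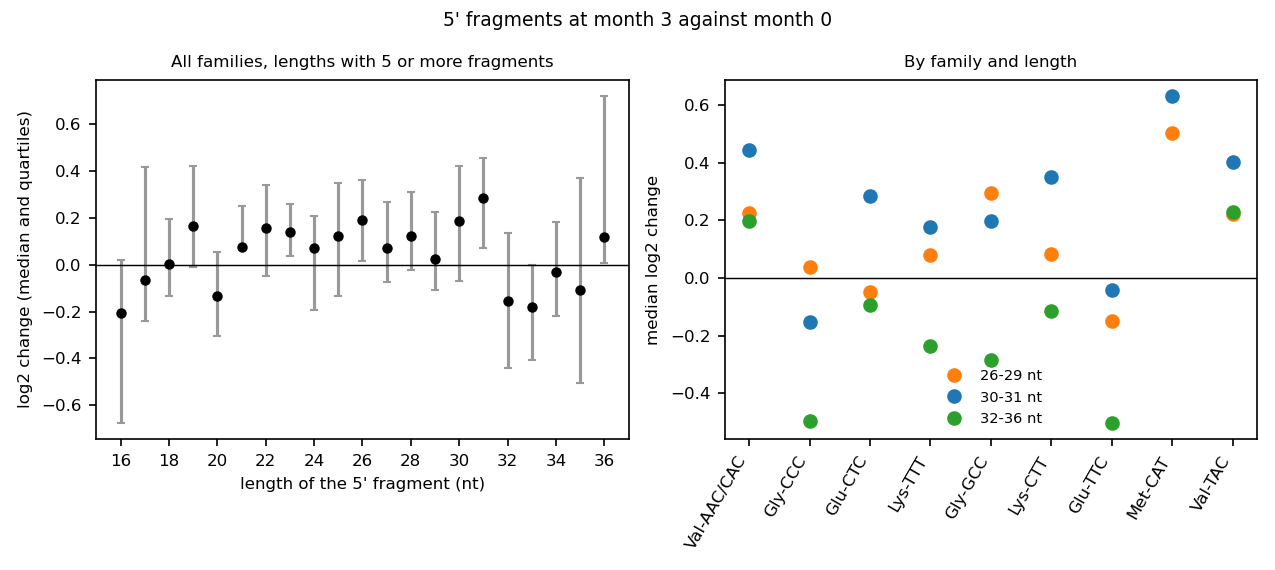
Left, median log2 change with quartiles (vertical axis) of the 5' fragments of each length in nt (horizontal axis) with 5 or more tested; right, median log2 change by family for 26-29, 30-31 and 32-36 nt. The median is 0.29 at 31 nt and -0.16 at 32 nt, and in each family that has all 3 bands the 32-36 nt median lies below that of 30-31 nt.

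The Met-CAT fragments were mostly higher at month 3. Of 38 tested, 34 were higher (median log2 0.57), and of the 30 that are 5' fragments 29 were (median 0.61, 0.50 with library totals only and 0.40 without PA8001). The parent fragment tRF-30-FP18LPMBQ4NK was at 70.4 to 859 CPM at month 0 (median 520) and 385 to 1192 CPM at month 3 (median 795). It was higher in 5 of 8 animals and did not pass (log2 0.62 ± 0.366 SE, interval -0.12 to 1.36). tRF-29-FP18LPMBQ4H4, a base shorter, had a log2 of 0.53 ± 0.313 SE and was higher in 6 of 8. Without PA8001 the changes of these 2 were 0.28 and 0.23, and without its month 0 library alone 0.39 and 0.34. The variant tRF-30-FPR8LPMBQ4NK (A6G) had the smallest p-value of all fragments, yet a low level: 0 to 6.36 CPM at month 0 (median 1.92) and 3.16 to 9.68 CPM at month 3 (median 6.06). That was 0 to 21 counts a library at month 0 and 14 to 46 at month 3. It was higher in 8 of 8 animals, with overlapping ranges (log2 1.17 ± 0.346 SE, interval 0.47 to 1.87, unadjusted p 0.00169, adjusted p 0.999 by edgeR). Its change was 0.95 without PA8001, where the month 0 library had 0 counts. A count of 0 there allows 7.82 CPM, close to the 7.83 CPM of that animal at month 3, so the direction in PA8001 was not detectable at this depth. Among the 73 fragments with an unadjusted p under 0.05, 9 were of Met-CAT, of 38 tested, all higher. Of the 73, 60 were 5' fragments, and 53 of these differed by 1 or 2 bases from their family sequence, as did 1716 (83.95%) of the 2044 5' fragments tested. Such variants carry the rest of the parent's sequence, and where their differing bases come from was not tested.

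Of the 369 tested 5' fragments of Val-AAC/CAC, 17 were among the 73 with an unadjusted p under 0.05, all higher, beside 2.98% of all fragments tested. tRF-31-79MP9PMNHRISD, which differs from the most abundant fragment by T16C, A24C and G26A, was at 15.6 to 83.7 CPM at month 0 (median 53.1) and 39.999 to 118 CPM at month 3 (median 87.5). It was higher in 8 of 8 animals after scaling (log2 0.67 ± 0.237 SE, interval 0.19 to 1.15, unadjusted p 0.00738, adjusted p 0.999 by edgeR), and its change was 0.44 without PA8001. In PA8915 it had 250 of 2004265 counts at month 0 and 495 of 4596623 at month 3, so before scaling its share was lower there. tRF-30-79MP9P9NHR7Y (A24C and C29T) was at a mean of 1.40 ± 0.864 and 3.12 ± 1.48 CPM (SD, n = 8; log2 0.98 ± 0.366 SE). It rested on 0 to 11 counts a library at month 0 and 2 to 16 at month 3, and in PA8001, with 0 counts at month 0, no direction was detectable. tRF-31-79MPZP9NH57SD (G12T) was higher in 7 of 8 (log2 0.70 ± 0.262 SE). The largest change among the named fragments was in tRF-37-79MP9P9NH57S362, a long fragment with the anticodon CAC (log2 2.60 ± 0.847 SE). It was listed at 0 in 5 of 8 libraries at month 0 and in 3 of 8 at month 3, and its highest month 0 value was 2.96 CPM, so its size is uncertain.

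Of the 20 lower fragments with an unadjusted p under 0.05, 6 were of Glu-TTC, 6 of Gly-CCC, 4 of Gly-GCC, 2 of Glu-CTC, 1 of Lys-TTT and 1 of no assigned family. Among the higher ones were 2 of Gly-CCC, 6 of Gly-GCC, 1 of Glu-CTC, 3 of Lys-TTT and 0 of Glu-TTC. In both directions together 6 of 93 tested 5' fragments of Glu-TTC had such a p, beside 2.98% of all fragments tested. For Gly-CCC it was 8 of 518 and for Gly-GCC 10 of 266. Of 93 tested 5' fragments of Glu-TTC 68 were lower (median log2 -0.20, -0.29 with library totals only). Its parent of 32 nt, tRF-32-86J8WPMN1E8YN, was at 409 to 2018 CPM at month 0 (median 774) and 421 to 772 CPM at month 3 (median 570), lower in 5 of 8 animals (log2 -0.53 ± 0.333 SE). The variant tRF-32-86J88PMN1E8YN (T13C) was at 1.48 to 10.4 CPM at month 0 (median 2.92) and 0.790 to 3.16 CPM at month 3 (median 1.28). It was lower in 8 of 8 animals (log2 -1.15 ± 0.354 SE, interval -1.86 to -0.43, unadjusted p 0.00264, adjusted p 0.999 by edgeR). It rested on 4 to 26 counts a library at month 0 and 2 to 15 at month 3. The variants tRF-32-K6J8WPMN1E8YN (T1C), tRF-32-86J8WPMN1EKYN (T26C) and tRF-32-8SJ8WPMN1E8YN (A5G) had log2 changes of -0.996, -0.95 and -0.82, each lower in 7 of 8 animals. These variants rested on 1 to 40 counts a library at month 0 and 1 to 14 at month 3. Their 95% intervals and that of the parent overlapped.

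Among Gly-CCC, tRF-32-Q1R89P9L8422Q (C7G), tRF-31-Q1Q89P9L8Y22E (A23C) and tRF-31-E1Q89P9L8422E (G1A) had log2 changes of -1.55 ± 0.613, -0.94 ± 0.374 and -0.85 ± 0.370 SE, each lower in 7 of 8. The first rested on 3 to 11 counts a library at month 0 and 0 to 8 at month 3. In PA8003 it went from 1.20 CPM to 0 counts, which allow 1.75 CPM, so no direction was detectable there. The second rested on 3 to 21 counts at month 0 and 1 to 9 at month 3. tRF-31-E1Q89P9L8422E stood at 365 CPM in PA8001 at month 0, against 9.78 to 57.4 CPM in the other 7, and its change was -0.32 without that library. In Gly-GCC, tRF-31-0NR8YP9LON4VD (G1A and G5T) had a log2 of -1.34 ± 0.473 SE and was lower in 6 of 8. It rested on 3 to 17 counts a library at month 0 and 1 to 8 at month 3. tRF-29-JY7383RPD9JM, which begins inside the 5' end, had -0.999 ± 0.407 SE and was lower in 5. Another Gly-GCC variant, tRF-30-P4R8YP9MON4V (A20C), had 0.74 ± 0.271 SE (0.48 without PA8001) and was higher in 6. The internal Glu-CTC fragment tRF-18-73V2Y8DM had a log2 of -0.85 ± 0.377 SE and was lower in 5; it was at 67.8 CPM in PA8001 at month 0 and was -0.47 without that library.

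**Figure D5:**
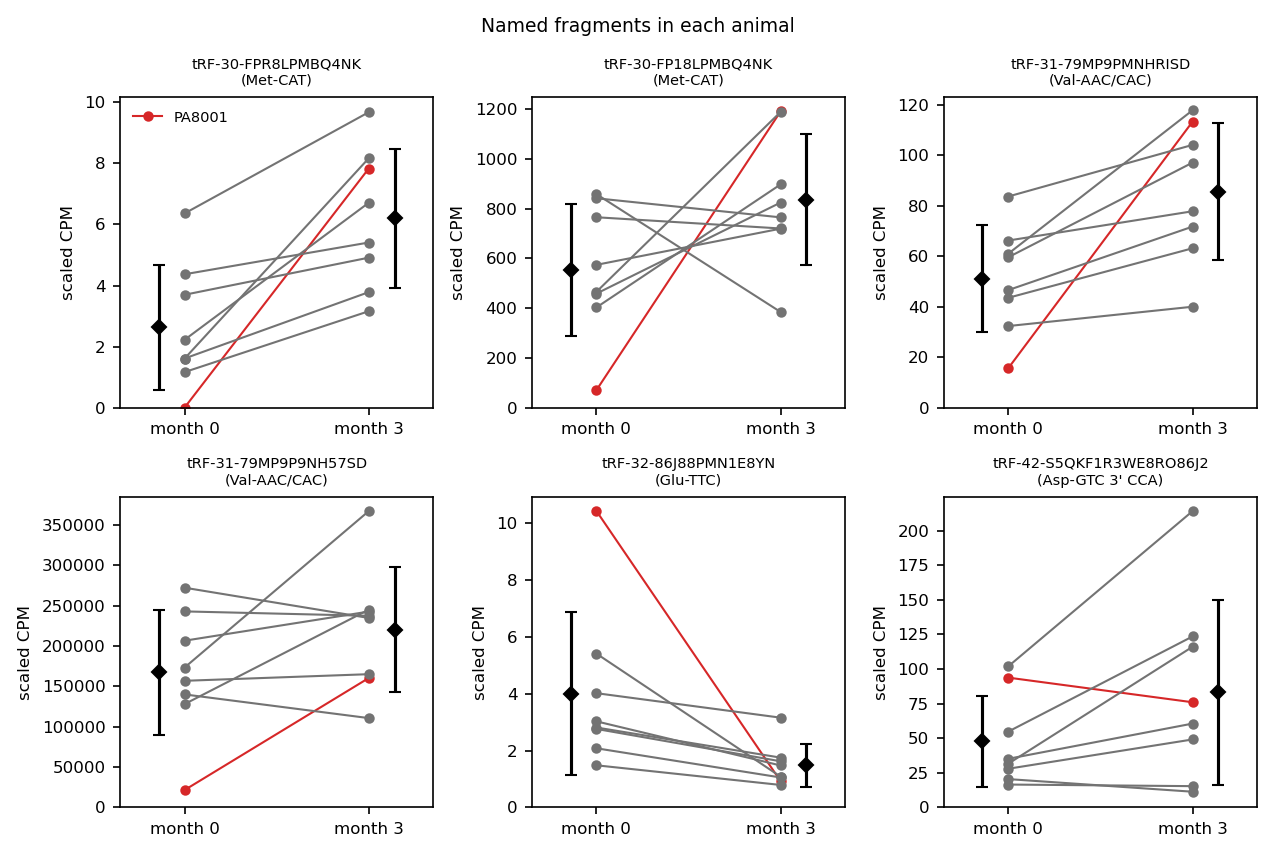
Scaled CPM (vertical axis, from 0) of 6 fragments in each of the 8 animals at month 0 and month 3, a line per animal (PA8001 in red), with the mean ± SD as black diamonds. tRF-30-FPR8LPMBQ4NK and tRF-31-79MP9PMNHRISD are plotted higher and tRF-32-86J88PMN1E8YN lower in every animal (the first from 0 counts in PA8001), with overlapping ranges; the abundant parents and the Asp-GTC fragment go both ways.

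Fragments that end in CCA made up 0.0701% ± 0.0476 of counts at month 0 and 0.0815% ± 0.0634 at month 3 (SD, n = 8), with 4 animals each way. Of 53 tested, 43 were higher (median log2 0.42, 0.32 with library totals only), and of these the 28 of Asp-GTC were all higher (median 0.51, and 0.36 to 0.65 over fits that leave out 1 animal). None passed, the 28 are nested pieces of 1 tRNA, and they were set apart with later months' results known. tRF-42-S5QKF1R3WE8RO86J2 was at 16.5 to 102 CPM at month 0 (median 33.4) and 11.3 to 214 CPM at month 3 (median 68.3), higher in 5 of 8 animals (log2 0.65 ± 0.319 SE, unadjusted p 0.0504, adjusted p 0.999 by edgeR). tRF-41-8HM2OSRNLNKSEK51B had a log2 of 0.84 ± 0.447 SE, with 4 animals each way. tRF-39-EH623K7SIR3DR2I2 was at 2.10 to 18.5 CPM (median 4.97) and 3.51 to 33.2 CPM (median 15.9), higher in 7 of 8 (log2 1.23 ± 0.434 SE). The unassigned tRF-43-96L85DMKYOYRLHR0D2 and the internal Asp-GTC fragment tRF-42-96L85DMKYUYRLHR0J were each higher in 7 of 8 (log2 1.23 ± 0.444 and 1.79 ± 0.576 SE), with month 0 medians of 0.347 and 0.497 CPM that lie under the limit a count of 0 allows. Internal means here that a fragment was not placed at a 5' end and does not end in CCA. tRF-42-96L85DMKYUYRLHR0J lacks only the last base of CCA, so internal fragments can include 3' pieces without their end. At the 5' side of Asp-GTC the median of 22 fragments was -0.03, and 59 of its 82 internal ones were higher (median 0.18).

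The other lists had medians from -0.30 to 0.22, beside 0.10 for all fragments. The 5' fragments of the 8 tRNA families abundant in serum had a median log2 of 0.08 (1067 of 1815 higher), fragments of tRNAs described to bind the RNA-binding protein YBX1 0.02 (714 of 1342), and glycine tRNAs 0.0041 (425 of 835). With library totals only these were -0.03, -0.10 and -0.14, against -0.0036 for all fragments. Those of Asp-GTC, His-GTG and Lys-CTT, described elsewhere to depend on sex hormones, had 0.17 (85 of 134 higher). Most were of Lys-CTT (74 of 108 higher, median 0.25). Of Asp-GTC 9 of 22 were higher (median -0.03), and of His-GTG 2 of 4. The 2 most abundant of this list, tRF-31-PSQP4PW3FJI0B and tRF-32-PSQP4PW3FJI01 of Lys-CTT, had log2 changes of 0.51 ± 0.461 and -0.01 ± 0.357 SE, or 0.21 and -0.20 without PA8001. 5' fragments that begin with a run of guanines, of Ala, Cys or no read anticodon, had 0.22 (38 of 51 higher), and tRF-30-RK9P4P9L5HMV and tRF-19-RKIP4OF4 among them had 0.34 ± 0.401 (-0.014 without PA8001) and 0.47 ± 0.442 SE. 5' fragments of 30-36 nt that begin at the first base had 0.10 (763 of 1317 higher), and those that begin 1 or 2 bases inside it 0.20 (59 of 81); the Gly-CCC fragments tRF-28-LSN3S3RQJVS and tRF-29-LSN3S3RQJV0X led the latter with 0.29 ± 0.287 and 0.10 ± 0.274 SE, or 0.16 and -0.014 without PA8001. The selenocysteine tRNA, which brings the amino acid with selenium, had 6 tested fragments, all with a log2 below 0 (median -0.30). Its tRF-39-PS5U8918W8RV1IJF and tRF-53-PS5U8918W8RV1I8B3WFY03 had -0.0015 ± 0.716 and -0.21 ± 0.730 SE, the latter -0.40 without the month 0 library of PA8001. By their levels the former was higher in 4 and lower in 4 animals, and the latter higher in 5 and lower in 3. The former stood at 78.6 CPM in PA8873 at month 3, against a median of 3.21 CPM. No Leu-CAG fragment that ends in CCA passed the filter on low counts, and mitochondrial tRNAs were not looked for.

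Families split by end and length gave 118 sums, of which none passed (0%, edgeR, smallest adjusted p 0.999; 3 with an unadjusted p under 0.05, 2.54%; DESeq2 0 with 5, limma-voom 0 with 1). The 5 smallest p-values belonged to Lys-CTT 5' fragments of 37 nt or more (log2 1.08 ± 0.425 SE, higher in 7 of 8), Glu-TTC 5' of 32-36 nt (-0.73 ± 0.316, lower in 6), SeC-TCA 5' of 32-36 nt (-0.74 ± 0.363, lower in 7), the unread-3 family's 5' of 16-24 nt (-0.54 ± 0.293, lower in 7) and Met-CAT 5' of 30-31 nt (0.56 ± 0.309, higher in 5). The first includes tRF-56-PSQP4PW3FJIKE7UMKKSWRND, which reached from the 5' end past the anticodon loop. It was at 0 to 10.7 CPM at month 0 (median 4.79) and 0.211 to 35.0 CPM at month 3 (median 11.7), higher in 7 of 8 animals (log2 1.42 ± 0.473 SE).

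Later draws of the same animals were set against month 3. At months 6 and 9 no fragment differed from month 3 (0% each, edgeR), and at month 15 272 of 2447 did (11.1%), though 0 did when PA8001 and PA8003 were left out at month 15. Fragments named for their month 3 value share the month 3 libraries with these comparisons, so their values here are descriptions. Comparisons with month 0 share those 8 libraries, so their values are given side by side only. tRF-30-FPR8LPMBQ4NK had log2 changes from month 0 of 1.17, 0.79, 0.59 and 0.45 at months 3, 6, 9 and 15. tRF-31-79MP9PMNHRISD had 0.67, 0.67, 0.35 and -0.07, and was lower at month 15 than at month 3. tRF-32-86J88PMN1E8YN had -1.15, -0.71, -1.24 and 0.32, and was higher at month 15 than at month 3. tRF-39-EH623K7SIR3DR2I2 had 1.23, 0.97, 0.91 and 2.14. The median of 5' fragments of 32-36 nt was -0.15, -0.27, -0.37 and 0.59 over the same months, and that of 26-31 nt 0.17, 0.12, 0.15 and -0.19. That of the Met-CAT fragments was 0.57, 0.27, 0.31 and 0.30.

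Animals differed in how alike their own 2 draws were. Spearman's rho between an animal's month 0 and month 3 libraries, across the 2447 fragments and given as a description, ran from 0.719 (PA8001) to 0.914 (PA8914) with a median of 0.838. Between libraries of different animals it ran from 0.455 to 0.909 with a median of 0.825, and the month 3 library nearest to an animal's month 0 library was its own in 2 of 8 animals. The median absolute log2 ratio of the 2 draws, after adding 1 CPM, was 1.28 in PA8001 and 0.411 to 0.770 in the other 7. In PA8001 64.3% of fragments were higher at month 3, against 49.3% to 55.8% in the others. Its month 0 library had 198840 counts and 2281 distinct fragments, fewer than the 2447 compared. Some of these were therefore at 0 counts there and could not be lower at month 3. How far depth shaped the values of PA8001 was not tested.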

How the data were processed

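Serum tRNA fragments were counted by the authors, and the deposited table holds raw counts of each fragment in 40 libraries. Per the labels' protocols, total RNA was extracted with MagMAX reagents, adapters were ligated, molecular identifiers were added at cDNA synthesis, and libraries were run on a NovaSeq X. R 4.5.0, edgeR and limma are named in the submitters' processing notes without a role. Not given in the sources used here are the aligner, the mismatches allowed and whether identifiers were collapsed.

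Of 60201 lines, 1614 with no ID (0.0805% of counts) were left out, and 58587 fragments of 16 to 89 nt remained. Families were read from the sequences: longer fragments gave an anticodon, and shorter ones were joined to them with up to 2 mismatches and 2 trimmed bases. This placed 99.4% of counts in 22 families with a read anticodon and 7 without ("unread"). These names are rebuilt and may differ from a tRNA reference.

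edgeR 4.0.16 (R 4.3.3) quasi-likelihood tests were fitted on all 40 libraries, with month as a factor and animal as a block, TMM scaling and a minimum count of 10. The same was run on family sums and on sums by family, end and length. The 23 library measures were compared by exact sign-flip permutation tests over 8 animals. DESeq2 1.42.0 and limma 3.58.1 were alternatives, and the fits were tested on simulated data. Animals were paired because the same animals were drawn at each month. Deviations from the month means correlated by 0.187 on average within an animal (-0.0234 to 0.698, above 0.1 in 4 of 8) and by -0.0288 between animals.

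Named fragments were the 10 with the smallest unadjusted p in each direction, the 10 most abundant, the 2 most abundant of each list, and those with the same sign in 8 of 8 animals and an unadjusted p under 0.01. The members and lists were chosen with earlier results of these data known.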

Additional observations from a re-analysis of the deposited data

Results flagged for a closer look

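Libraries that stood apart from the other 7 of their month by Dixon's test were found in 16 of 116 groups of 8. Chance marks about 1 in 20 of independent groups. The groups here were not independent: they include named fragments chosen in these same libraries, some from the same tRNA. The rates therefore cannot be compared. Fragments of 37 nt or more made up 0.264% of counts in PA8872 at month 0 and 0.271% in PA8003 at month 3, each the highest of its month. Fragments that end in CCA made up 0.221% in PA8003 at month 3, and Glu-TTC 1.795% in PA8914 at month 0.

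PA8001 at month 0, the library with the fewest counts, was marked by the test as highest for 5 named fragments. These were tRF-31-E1Q89P9L8422E of Gly-CCC at 364.8 CPM, tRF-18-73V2Y8DM of Glu-CTC at 67.75 CPM, tRF-29-JY7383RPD9JM of Gly-GCC at 18.24 CPM, tRF-32-86J88PMN1E8YN of Glu-TTC at 10.42 CPM and tRF-32-Q1R89P9L8422Q of Gly-CCC at 7.818 CPM. The last of these levels was that of 3 counts. Without being marked, PA8001 was also highest at month 0 for tRF-31-0NR8YP9LON4VD and tRF-32-K6J8WPMN1E8YN (10.4 CPM each, 4 counts). The same held for tRF-31-Q1Q89P9L8Y22E (7.82 CPM, 3 counts) and tRF-32-Q1Q89P9L8422Q (123720 CPM). In PA8001 at month 3, tRF-31-0NR8YP9LON4VD of Gly-GCC was marked as highest at 3.686 CPM.

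PA8872 was marked as highest at month 0 for tRF-39-EH623K7SIR3DR2I2 of Asp-GTC (18.51 CPM) and tRF-37-79MP9P9NH57S362 of Val-AAC/CAC (2.962 CPM). The same animal was marked as highest at month 3 for tRF-32-79MP9P9NH57SJ of Val-AAC/CAC (156000 CPM) and tRF-31-87R8WP9N1EWJ0 of Glu-CTC (56840 CPM). At month 3, PA8003 was marked as highest for tRF-43-96L85DMKYOYRLHR0D2 (5.251 CPM) and PA8915 for tRF-32-86J88PMN1E8YN (3.155 CPM).

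Of the 42 named fragments, 8 differed between month 15 and month 3 (edgeR, adjusted p under 0.05), beside 272 of all 2447 (11.1%). Of these 8, 7 had been named for a small p at month 3, and both comparisons use the month 3 libraries, so these differences are descriptions. tRF-31-79MP9PMNHRISD of Val-AAC/CAC was lower at month 15, by a log2 of -0.74. The other 7 were higher: tRF-32-86J88PMN1E8YN by 1.47, tRF-32-K6J8WPMN1E8YN by 1.46 and tRF-32-8SJ8WPMN1E8YN by 1.06, all of Glu-TTC, tRF-32-Q1R89P9L8422Q by 2.27, tRF-31-Q1Q89P9L8Y22E by 1.33 and tRF-32-Q1Q89P9L8422Q by 1.45, all of Gly-CCC, and tRF-18-73V2Y8DM of Glu-CTC by 1.17. Of these 7, 6 are 5' fragments of 31 or 32 nt. With PA8001 and PA8003 left out at month 15, 0 of all fragments passed in that comparison.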

How the results depend on the processing

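No fragment, family or class passed at month 3 in any setting run; the smallest adjusted p for fragments was 0.764 (without PA8873) and for families 0.0623 (exact matches only). The number of fragments with an unadjusted p under 0.05 was 22 to 151 among the settings with a filter and 783 of 58587 with none. Of 80 named values 51 kept their sign in every setting and 29 did not, and the cause was not tested. Depth limits PA8001 at month 0 most. With limma-voom and library weights the log2 values that turned sign were tRF-27-Q1Q89P9L842 -0.086, tRF-29-Q1Q89P9L84FS -0.044, tRF-19-RKIP4OF4 -0.086, tRF-39-PS5U8918W8RV1IJF 0.22 and tRF-29-LSN3S3RQJV0X -0.039. With library totals only these were tRF-27-Q1Q89P9L842 -0.034, tRF-29-Q1Q89P9L84FS -0.095 and tRF-29-LSN3S3RQJV0X -0.054. With no filter on low counts these were tRF-27-Q1Q89P9L842 -0.031 and tRF-29-Q1Q89P9L84FS -0.0028. With the library total as a covariate these were tRF-27-Q1Q89P9L842 -0.059, tRF-29-Q1Q89P9L84FS -0.053, tRF-29-LSN3S3RQJV0X -0.0083, Gly-GCC -0.007 and Lys-CTT -0.045. With limma-voom these were tRF-32-PSQP4PW3FJI01 0.026, tRF-39-PS5U8918W8RV1IJF 0.37 and tRF-53-PS5U8918W8RV1I8B3WFY03 0.39. With only the libraries of months 0 and 3 these were tRF-32-PSQP4PW3FJI01 0.011, tRF-39-PS5U8918W8RV1IJF 0.12, Gly-GCC -0.0101, Lys-CTT -0.10 and Asp-GTC -0.089. With PA8001 and PA8003 left out at month 15 it was tRF-32-PSQP4PW3FJI01 0.0005. With RLE size factors these were tRF-39-PS5U8918W8RV1IJF 0.033 and Lys-CTT -0.046. With a minimum count of 30 these were tRF-39-PS5U8918W8RV1IJF 0.013, Lys-CTT -0.068 and Asp-GTC -0.024. With families read with 0 mismatches only these were Gly-CCC 0.051, Glu-CTC 0.27 and Lys-TTT 0.28. With DESeq2 it was Lys-CTT -0.045. The difference in the percent in 37 or more nt was -0.0011 with only fragments that pass the filter.

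Without the replicate block, which drops the pairing by animal, 0 fragments, 0 families and 0 classes passed at month 3, with 56, 0 and 1 at an unadjusted p under 0.05, and 181 fragments passed at month 15 against month 3 in place of 272. The smallest adjusted p of the library measures was 0.957. Without the block the log2 values that turned sign were tRF-27-Q1Q89P9L842 -0.024, tRF-29-Q1Q89P9L84FS -0.015, tRF-39-PS5U8918W8RV1IJF 1.26, tRF-53-PS5U8918W8RV1I8B3WFY03 0.31, Lys-CTT -0.036 and Asp-GTC -0.14. The block changed no other call. With PA8001 and PA8003 left out at month 15, 0 fragments passed at month 15 against month 3.

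Leaving out 1 animal, or the month 0 library of PA8001, gave log2 values of -0.13 to 0.26 for tRF-27-Q1Q89P9L842, -0.064 to 0.18 for tRF-29-Q1Q89P9L84FS, -0.18 to 0.068 for tRF-30-Q1Q89P9L8422, -0.14 to 0.47 for tRF-31-87R8WP9N1EWJ0, -0.20 to 0.18 for tRF-32-PSQP4PW3FJI01, -0.014 to 0.59 for tRF-30-RK9P4P9L5HMV, -0.80 to 0.51 for tRF-39-PS5U8918W8RV1IJF, -0.73 to 0.48 for tRF-53-PS5U8918W8RV1I8B3WFY03, -0.065 to 0.22 for tRF-29-LSN3S3RQJV0X, -0.63 to 0.15 for Gly-CCC, -0.34 to 0.42 for Glu-CTC, -0.41 to 0.25 for Lys-TTT, -0.073 to 0.45 for Gly-GCC, -0.18 to 0.30 for Lys-CTT and -0.33 to 0.46 for Asp-GTC. Differences in library measures ran over leave-outs of 1 animal from -0.67 to 0.22 for the percent in Lys-TTT, -0.047 to 0.0093 for mean length of Lys-TTT 5' fragments nt, -424760 to 321690 for total count, -74.00 to 108 for distinct fragments at a common depth, -0.086 to 0.11 for mean fragment length nt, -3.68 to 0.53 for the percent in 25-29 nt, -0.024 to 0.026 for the percent in 37 or more nt, -0.0084 to 0.023 for the percent in 3' CCA fragments, -0.11 to 0.065 for the percent in 16-24 nt, -0.11 to 0.031 for the percent in 5' fragments, -0.044 to 0.091 for the percent in internal fragments, -0.067 to 0.64 for the percent in Gly-GCC and -0.093 to 0.0017 for Shannon diversity (natural log).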
